A study of Mus musculus with 12 samples.

Results

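The 9 genes described here carry vitamin A signalling in the mouse kidney: Cyp26b1, which clears retinoic acid, the genes that make, store or carry its precursors (Dhrs3, Rdh10, Aldh1a1, Lrat and Rbp4), and the 3 retinoic acid receptors (Rara, Rarb and Rarg). They were chosen by name, through their Entrez Gene identifiers, from 24532 gene identifiers, and all 9 were in the deposited tables. The choice was made with earlier results of these data known. Levels are TPM, which divides reads by transcript length and scales every library to one total, so that levels of different genes can be compared. Total RNA from kidneys of mice fasted overnight was sequenced in 12 libraries, with 3 in each of 4 groups. FXR KO mice (strain label Nr1h4tm1Gonz/J, a targeted allele of Nr1h4) were given GW4064 for 6 h or vehicle, and WT mice (strain label C57BL/6) were given GW4064 for 6 h or vehicle. The product of Nr1h4 is FXR, the farnesoid X receptor, which is activated by bile acids, and the compound GW4064 is made to activate it. No age, sex or vehicle time was labelled, and neither separate animals nor littermate controls are stated. All p-values therefore reflect how these libraries vary, which may be partly technical. As the strain labels of KO and WT differ, a difference between genotypes cannot be told apart from one of strain or breeding.

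Retinol circulates bound to RBP4, is taken up from the glomerular filtrate by proximal tubule cells through megalin and cubilin, and can be stored as retinyl ester by LRAT. RDH10 oxidises retinol to retinal, DHRS3 reduces retinal back to retinol, and the ALDH1A enzymes oxidise retinal to retinoic acid, which CYP26 enzymes hydroxylate for removal. Retinoic acid acts through RARα, RARβ and RARγ bound to DNA with RXR partners, and Rarb, Dhrs3, Lrat and the Cyp26 genes are themselves known to be induced by it in many tissues.

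Promoter sequence was examined because both FXR and the retinoic acid receptors bind pairs of a 6-base half-site. RefSeq promoter windows of build GRCm38.p6 were available for 8 of the 9 genes (16 windows, Rdh10 not among them). The half-site AGGTCA, its variant GGGTCA and the related forms AGTTCA and also GGTTCA were searched on both strands, alone and in pairs. At least 1 half-site was found in 6 of the 16 windows (37.5%), which belong to 5 of the 8 genes, and in 43.7% of all 32851 windows of the table. A direct repeat of 2 half-sites spaced by 5 bases is a form that the retinoic acid receptors bind. It was found in 1 of the 16 windows, that of Rarb, and in 0.0974% of all windows. The repeat lay 53 to 37 bases before the RefSeq start of that window. This start lies inside the deposited Rarb gene, and 2 annotated transcripts have an exon over the printed stretch. The retinoic acid response element of the Rarb promoter is a classical one. Direct repeats spaced by 2 bases (0.268% of all windows) and inverted repeats spaced by 1 base, the form best known for FXR (0.0365%), were found for none of the 8 genes. A half-site within a repeat is also counted as a half-site, and a match or its absence in a window says nothing about binding. The stretches below belong to the 3 genes whose GW4064 difference depended on genotype in the test below (Cyp26b1, Rarb and Rarg) and to Aldh1a1, which differed between genotypes under both treatments. They run 5′ to 3′ on the gene's strand, with half-site matches in capitals: Cyp26b1 is chr6:84593909-84594060 (minus strand, no match), Rarb is chr14:16575507-16575535 (minus strand, the repeat with short flanks), Rarg is chr15:102257523-102257772 (minus strand, 1 match in reverse) and Aldh1a1 is chr19:20601718-20601960 (plus strand, 1 match in reverse).
Cyp26b1: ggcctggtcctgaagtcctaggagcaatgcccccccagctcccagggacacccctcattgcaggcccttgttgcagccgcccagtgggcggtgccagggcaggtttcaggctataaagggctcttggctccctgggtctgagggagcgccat
Rarb: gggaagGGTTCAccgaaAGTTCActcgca
Rarg: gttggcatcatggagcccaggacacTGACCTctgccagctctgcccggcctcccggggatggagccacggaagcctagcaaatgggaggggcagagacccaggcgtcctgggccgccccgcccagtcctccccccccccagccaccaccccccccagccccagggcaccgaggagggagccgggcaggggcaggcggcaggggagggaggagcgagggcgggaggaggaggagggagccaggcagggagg
Aldh1a1: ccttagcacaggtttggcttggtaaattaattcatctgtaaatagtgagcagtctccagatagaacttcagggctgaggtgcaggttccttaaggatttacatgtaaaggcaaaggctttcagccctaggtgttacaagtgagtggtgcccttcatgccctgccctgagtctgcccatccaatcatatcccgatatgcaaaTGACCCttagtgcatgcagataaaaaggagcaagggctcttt

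The genotype label was checked first. Nr1h4 (chromosome 10, which holds none of the 9 genes) was present in the knockout libraries at 105 to 134 TPM with GW4064 and 113 to 119.9 TPM with vehicle, against 189 to 242 TPM in WT with GW4064 and 217 to 267 TPM in WT with vehicle. The gene-level values do not separate the disrupted exons from the rest. Slc51a, a bile acid transporter subunit and known FXR target, was at 28.6 to 33.2 TPM in KO with GW4064 and 34.3 to 46.5 TPM in KO with vehicle, against 427 to 514 TPM in WT with GW4064 and 36.4 to 48.1 TPM in WT with vehicle. The kidney label was checked on markers, with the proximal tubule phosphate transporter Slc34a1 at 2217 to 3087 TPM and the adrenal enzyme Cyp11b1 at 0 in all 12 libraries. Of the other adrenal markers, Star was at 1.11 to 2.12 TPM. Hsd3b1 reached at most 0.878 TPM, Cyp21a1 0.0917 TPM and Cyp11a1 0.0840 TPM. Libraries held 2.86 to 4.27 mapped gigabases. With limma over 14488 tested genes, 360 rose and 336 fell with GW4064 in WT, and 462 were higher and 1410 lower in the knockout on vehicle. Under another scaling (median of ratios) these became 458 and 226 in WT, and 846 and 533 in the knockout on vehicle, although the median of all genes moved by less than 0.1 on the log2 scale.

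Cyp26b1 (Entrez 232174, chr6:84571414-84593908 in the deposited mm10 coordinates, minus strand) encodes the retinoic acid hydroxylase that lowers local retinoic acid. It was at 21.6, 12.7 and 18.5 TPM in KO with GW4064 and at 12.2, 9.20 and 12.4 TPM in KO with vehicle. It was at 0.936, 1.72 and 1.44 TPM in WT with GW4064 and at 5.68, 5.45 and 5.87 TPM in WT with vehicle. The 4 groups did not overlap: KO with GW4064 was highest, followed by KO with vehicle, WT with vehicle and WT with GW4064.

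With GW4064 in WT kidneys Cyp26b1 fell by 1.75 ± 0.20 on the log2(TPM + 0.5) scale (± is the SE for log2 differences, limma, adjusted p = 0.000499), to a mean of 1.36 ± 0.396 TPM with GW4064, against 5.66 ± 0.210 TPM with vehicle (SD, n = 3 each). In the knockout the same treatment gave a log2 difference of 0.60 ± 0.20 with an interval of 0.16 to 1.04, which did not pass the threshold of 0.05 (limma, adjusted p = 0.315), although no library overlapped. The neighbours KO with GW4064 and KO with vehicle are thus not separated by the test. The 2 GW4064 differences differed from each other by 2.35 ± 0.29 on the log2 scale (interaction, knockout minus wild type, limma, adjusted p = 0.00168). Between genotypes Cyp26b1 was 0.92 ± 0.20 higher in KO than in WT on vehicle (limma, adjusted p = 0.0144) and 3.27 ± 0.20 higher under GW4064 (limma, adjusted p = 1.4e-06). The comparisons share libraries, so these values are not independent of each other. The call on vehicle was lost without KO vehicle replicate 1 (limma, adjusted p = 0.0503), and the other 3 calls held when each of the 12 libraries was left out in turn.

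**Figure D1:**
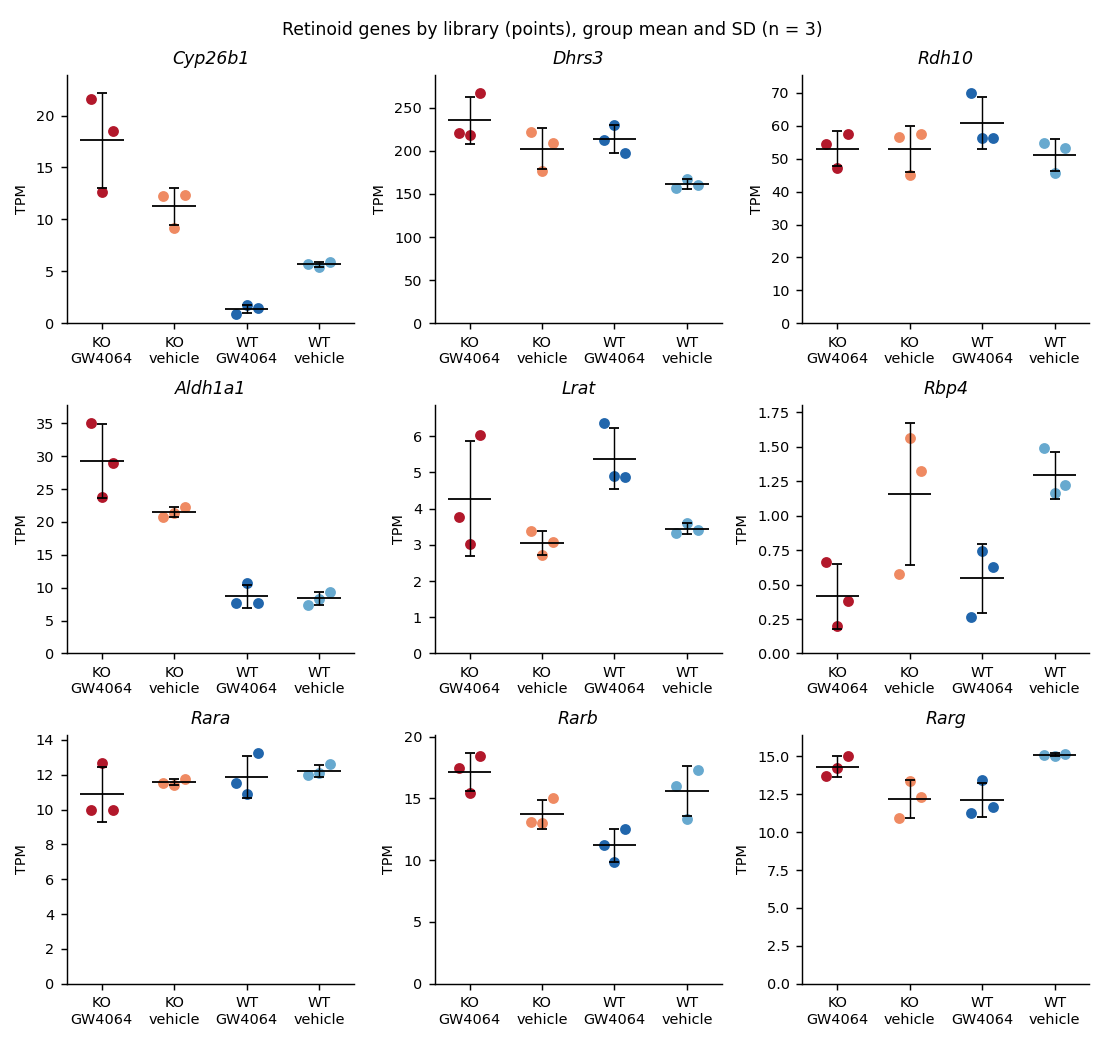
TPM of the 9 genes in each library (points), with the mean (wide bar) and SD (whiskers) of the 3 libraries of each group, on axes that start at 0. Cyp26b1 runs between 12.7 and 21.6 TPM in KO with GW4064 and between 0.936 and 1.72 TPM in WT with GW4064, and Aldh1a1 is above 20 TPM in every KO library and at most 10.7 TPM in every WT library.

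Aldh1a1 (Entrez 11668, chr19:20601982-20643462, plus strand) encodes a retinal dehydrogenase, which makes retinoic acid from retinal. Its levels were 35.0, 23.9 and 29.0 TPM in KO with GW4064 and 20.8, 21.3 and 22.3 TPM in KO with vehicle. They were 7.68, 10.7 and 7.65 TPM in WT with GW4064 and 7.45, 8.31 and 9.41 TPM in WT with vehicle. Every KO library lay above every WT library, and the 2 WT groups overlapped. Aldh1a1 was 1.31 ± 0.15 higher on the log2 scale in KO than in WT on vehicle (limma, adjusted p = 0.000409) and 1.70 ± 0.15 higher under GW4064 (limma, adjusted p = 1.67e-05), and both calls held when each of the 12 libraries was left out in turn. GW4064 gave a difference of 0.03 ± 0.15 in WT with an interval of -0.29 to 0.36 (limma, adjusted p = 0.936), and of 0.42 ± 0.15 in KO with no overlap (limma, adjusted p = 0.331). Its neighbour Aldh1a7, a closely similar gene whose reads may be shared with it under a counting rule not given in the sources used here, was at 47.7, 22.6 and 39.1 TPM in KO with GW4064 and 20.5, 21.0 and 24.9 TPM in KO with vehicle, against 14.3, 17.5 and 11.3 TPM in WT with GW4064 and 14.8, 16.9 and 14.7 TPM in WT with vehicle. Under GW4064 Aldh1a7 was higher in KO than in WT by 1.27 ± 0.23 (limma, adjusted p = 0.00255). The genotype difference on vehicle, 0.50 ± 0.23 (limma, adjusted p = 0.164), and the GW4064 difference in KO, 0.65 ± 0.23 (limma, adjusted p = 0.326), did not pass. The share of each gene in the Aldh1a1 values is uncertain.

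Dhrs3 (Entrez 20148, chr4:144892827-144927645, plus strand), the retinal reductase, was the most abundant of the 9 genes. It was at 221, 218 and 267 TPM in KO with GW4064 and at 222, 177 and 209.5 TPM in KO with vehicle. It was at 213, 230.2 and 198 TPM in WT with GW4064 and at 157, 167 and 160.2 TPM in WT with vehicle. The WT vehicle libraries were the lowest 3 of the 12, while the other 3 groups overlapped. Dhrs3 rose with GW4064 in WT by 0.40 ± 0.09 on the log2 scale (limma, adjusted p = 0.0327) and was 0.32 ± 0.09 higher in KO on vehicle (limma, adjusted p = 0.0456). Both calls were near the threshold: the first was lost without WT GW4064 replicate 1 or 2 or any WT vehicle library (adjusted p up to 0.125), and the second without KO vehicle replicate 1 or 3, WT GW4064 replicate 1 or 3 or any WT vehicle library (up to 0.140). Both were also lost with no filter on low values, with no variance trend and with the replicate number as a block, and the second also with only the compared samples.

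Rdh10 (Entrez 98711, chr1:16105882-16132550, plus strand), the retinol dehydrogenase of the pathway's first step, ranged from 47.1 to 57.5 TPM in KO with GW4064, 45.0 to 57.6 TPM in KO with vehicle, 56.3 to 70.0 TPM in WT with GW4064 and 45.7 to 54.8 TPM in WT with vehicle. It passed the test in none of the 5 comparisons, and its unadjusted p in WT with GW4064 against vehicle was 0.0620, with a difference of 0.24 ± 0.12.

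Lrat (Entrez 79235, chr3:82892582-82903974, minus strand), which esterifies retinol for storage, was low. It was at 3.77, 3.01 and 6.04 TPM in KO with GW4064 and at 3.37, 2.72 and 3.07 TPM in KO with vehicle, against 6.36, 4.89 and 4.88 TPM in WT with GW4064 and 3.33, 3.61 and 3.40 TPM in WT with vehicle. Every WT GW4064 library was above every WT vehicle library, and the KO groups overlapped, with KO GW4064 replicate 3 standing high. The WT difference of 0.57 ± 0.20 had an adjusted p of 0.142 (limma), and without KO GW4064 replicate 3 it passed the threshold. Lrat was called in none of the 5 comparisons with all libraries.

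Rbp4 (Entrez 19662, chr19:38116620-38125321, minus strand), the plasma retinol carrier made mainly by liver and fat, was near the filter of 1 TPM in at least 3 libraries and passed it through the vehicle libraries. It was at 0.663, 0.201 and 0.379 TPM in KO with GW4064 and at 0.575, 1.56 and 1.33 TPM in KO with vehicle, against 0.264, 0.746 and 0.628 TPM in WT with GW4064 and 1.49, 1.16 and 1.23 TPM in WT with vehicle. All GW4064 libraries of WT lay below all its vehicle libraries, and in KO the groups overlapped through replicate 1 of each. The differences, -0.80 ± 0.30 in WT (limma, adjusted p = 0.171) and -0.83 ± 0.30 in KO (limma, adjusted p = 0.351), did not pass. Adipoq, a fat-defining marker, spanned 1.48 to 3.23 TPM in KO with GW4064, 0.148 to 3.32 TPM in KO with vehicle, 0.133 to 4.47 TPM in WT with GW4064 and 2.96 to 3.99 TPM in WT with vehicle. The summed level of all 6 fat markers was 164 to 290.3 TPM in KO with GW4064, 163 to 209 TPM in KO with vehicle, 148 to 221 TPM in WT with GW4064 and 179 to 185 TPM in WT with vehicle, and the fat marker Lep was at 0 in 11 of 12 libraries. Most of that sum was Fabp4 (146 to 260.1 TPM over all libraries), which endothelial cells also express. Cfd, another fat marker, spanned 5.91 to 19.9 TPM in KO with GW4064, 2.77 to 23.0 TPM in KO with vehicle, 0.711 to 25.3 TPM in WT with GW4064 and 13.1 to 23.2 TPM in WT with vehicle. The part of fat in the Rbp4 values was not tested. Reads of Mir3084-1, Mir3084-2 and Snora19, short genes inside Rbp4 on its strand, may also be counted with it.

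Rarb (Entrez 218772, chr14:16430840-17082331, minus strand), the receptor gene with the direct repeat printed above, was at 17.4, 15.5 and 18.5 TPM in KO with GW4064 and at 13.1, 13.01 and 15.04 TPM in KO with vehicle. In WT it was at 11.2, 9.85 and 12.5 TPM with GW4064 and at 16.0, 13.4 and 17.3 TPM with vehicle. Within KO the GW4064 libraries were all above the vehicle libraries, and within WT they were all below. In WT Rarb fell by 0.46 ± 0.11 with GW4064 (limma, adjusted p = 0.0447), in KO the difference was 0.31 ± 0.11 (limma, adjusted p = 0.360), and the 2 differed by 0.77 ± 0.16 (interaction, limma, adjusted p = 0.0272). Rarb was 0.59 ± 0.11 higher in KO than in WT under GW4064 (limma, adjusted p = 0.00411), and this call held when each of the 12 libraries was left out in turn, while on vehicle the difference was -0.17 ± 0.11 (limma, adjusted p = 0.331). The WT and interaction calls were each lost on leaving out any of 8 libraries (replicates 1 and 3 of KO GW4064, 1 and 2 of KO vehicle, 1 and 2 of WT GW4064, 1 and 3 of WT vehicle), with adjusted p up to 0.164 and 0.0758. The WT call was also lost with no filter on low values, with no variance trend and with only the compared samples (limma, adjusted p up to 0.0816).

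Rarg (Entrez 19411, chr15:102234938-102257522, minus strand) was at 13.7, 14.2 and 15.0 TPM in KO with GW4064 and at 10.9, 13.4 and 12.3 TPM in KO with vehicle. It was at 11.3, 13.4 and 11.6 TPM in WT with GW4064 and at 15.1, 15.0 and 15.2 TPM in WT with vehicle, a spread of 0.651% of the mean (SD over mean). As for Rarb, GW4064 libraries were above vehicle libraries in KO and below them in WT. On vehicle Rarg was lower in KO by 0.30 ± 0.09, that is a log2 difference of -0.30 (limma, adjusted p = 0.0436), and the GW4064 differences of the genotypes differed by 0.53 ± 0.12 (interaction, limma, adjusted p = 0.0401). The differences within WT (-0.31 ± 0.09, limma, adjusted p = 0.0706) and within KO (0.22 ± 0.09, limma, adjusted p = 0.386) did not pass. The genotype call was lost on leaving out any of 8 libraries (KO GW4064 replicates 2 and 3, KO vehicle 1 and 3, WT GW4064 3 and each WT vehicle library, adjusted p up to 0.132). The interaction call was lost on leaving out any library but KO vehicle replicate 2 and WT GW4064 replicate 2 (up to 0.107). Both were lost under median-of-ratios scaling and with no filter on low values, and the genotype call also with FPKM and with only the compared samples.

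Rara (Entrez 19401, chr11:98937696-98974942, plus strand), the most widely expressed of the receptor genes, ranged from 9.96 to 12.7 TPM in KO with GW4064, 11.4 to 11.7 TPM in KO with vehicle, 10.9 to 13.2 TPM in WT with GW4064 and 11.96 to 12.6 TPM in WT with vehicle. Its log2 differences lay between -0.13 and -0.04 in the 5 comparisons and none passed. Mir684-1, a short gene inside Rara on the same strand, was listed at 84.6 to 131 TPM, and how reads there were assigned is not given in the sources used here.

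**Figure D2:**
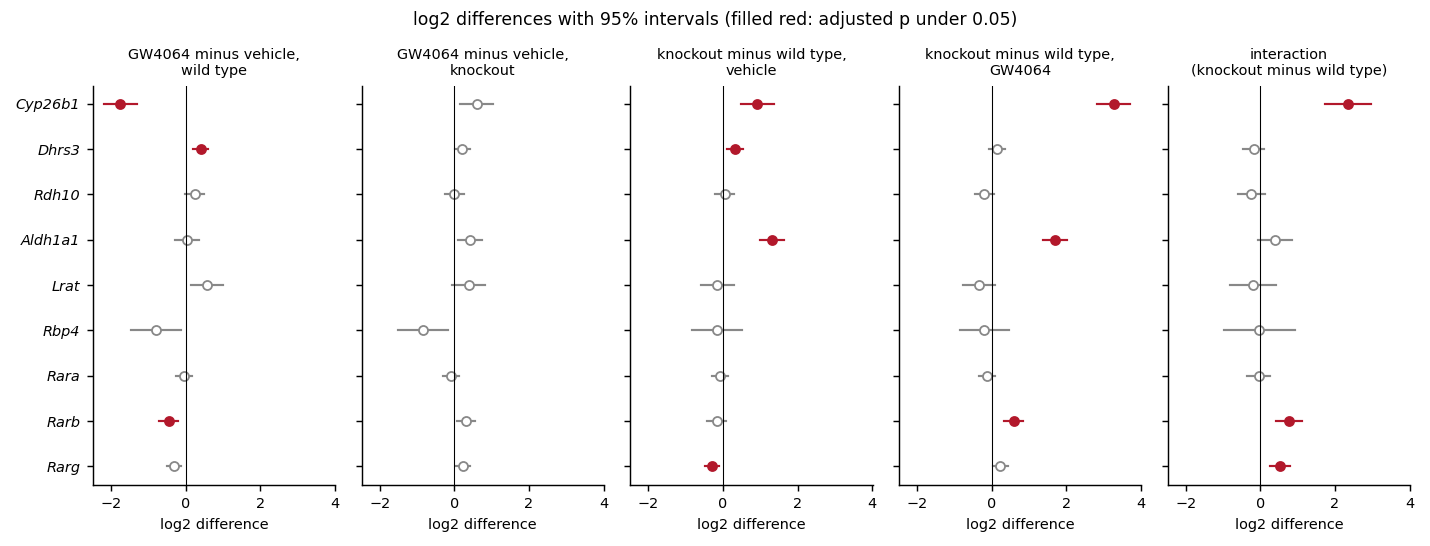
log2 differences of the 9 genes with 95% intervals in the 5 comparisons (GW4064 minus vehicle in each genotype, knockout minus wild type on each treatment, and the interaction), with filled red points for an adjusted p under 0.05 (limma). Cyp26b1 lies at -1.75 in wild type and at 0.60 in the knockout, and Aldh1a1 departs from 0 in the 2 genotype comparisons.

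Set beside all tested genes, the counts leave out Rbp4, which passed the filter only through vehicle libraries, so that 8 genes remain. The genes were chosen with earlier results of these data known, so a share above that of all genes is no independent support. With GW4064 in WT 3 of the 8 were called (Dhrs3 higher, Cyp26b1 and Rarb lower), against 4.80% of all genes, and 6 did not overlap between the groups, against 26.8%. With GW4064 in KO 0 of the 8 were called by limma, against 0.0138% (2 genes), while 5 had an unadjusted p under 0.05, against 10.8%, and 4 did not overlap, against 13.9%. In KO on vehicle 4 of the 8 were called (Cyp26b1, Aldh1a1 and Dhrs3 higher, Rarg lower), against 12.9%, and 5 did not overlap, against 34.7%. In KO under GW4064 3 of the 8 were called, all higher (Cyp26b1, Aldh1a1 and Rarb), against 18.5%, and 4 did not overlap, against 36.7%. For the interaction 3 of the 8 were called (Cyp26b1, Rarb and Rarg), against 3.19%. The median log2 difference of the 8 genes was -0.0041 with GW4064 in WT, 0.27 with GW4064 in KO, -0.02 in KO on vehicle, 0.19 in KO under GW4064 and 0.17 for the interaction. Over all tested genes the medians were -0.03 with GW4064 in WT, 0.02 with GW4064 in KO, -0.09 in KO on vehicle, -0.03 in KO under GW4064 and 0.05 for the interaction. With Rbp4 included, KO GW4064 replicate 2 was the lowest of its group for 7 of the 9 genes, and KO vehicle replicate 2 for 6 of the 9. Whether the same holds over all genes was not tested.

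Some markers of other cells differed between genotypes. On vehicle 5 of 7 stromal markers and 4 of 5 podocyte markers were lower in KO, and under GW4064 3 of 7 and 2 of 5. Also lower on vehicle were 2 of 4 endothelial, 2 of 6 principal cell and 1 of 6 proximal tubule markers. Of 4 intercalated cell markers 1 was higher and 1 lower, and 1 of 4 macrophage and 1 of 5 liver markers were higher. Of the tested thick limb (3), distal tubule (3), urothelial (5) and fat (5) markers none was called on vehicle. Over all tested genes 12.9% were called on vehicle, most of them lower in KO, and 18.5% under GW4064. Under median-of-ratios scaling most calls on vehicle were instead higher in KO (846, against 533 lower). The summed stromal level was 186 to 230.2 TPM in KO with GW4064, 187 to 215 TPM in KO with vehicle, 245 to 324 TPM in WT with GW4064 and 284 to 387 TPM in WT with vehicle. With GW4064 in WT the stromal gene Pdgfra was lower (-0.54, limma, adjusted p = 0.0460), and it was also called in the interaction (0.92, limma, adjusted p = 0.0271), the only stromal marker called in either. The interaction was positive in 3 other stromal markers (0.23 in Col1a2, 0.53 in Dcn and 0.50 in Pdgfrb) and negative in Col1a1 (-0.30), Col3a1 (-0.11) and Lum (-0.39), whose differences in WT lay between -0.06 and -0.03. The summed level of 6 urothelial markers was 20.8 to 53.1 TPM in KO with GW4064, 17.6 to 35.1 TPM in KO with vehicle, 18.2 to 21.0 TPM in WT with GW4064 and 36.6 to 40.4 TPM in WT with vehicle, and 0 of its 5 tested genes were called. The median log2 difference of these 5 genes was -0.89 with GW4064 in WT, 0.36 in KO and 1.25 for the interaction. Over all genes it was -0.03, 0.02 and 0.05. In WT 4 of the 5 did not overlap between the groups, against 26.8% of all genes. The part of these cells in the results was not tested, and in whole kidney fewer cells of a type and less RNA per cell cannot be told apart.

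Of the other retinoid genes, a list of 63, 47 could be tested. This list too was chosen with earlier results of these data known. Among 11 tested genes of uptake, transport and storage, 2 rose with GW4064 in WT (18.2%, against 4.80% of all genes). Stra6l, a relative of the retinol transporter Stra6, was at 15.4, 12.3 and 16.5 TPM in KO with GW4064 and 8.98, 12.9 and 10.5 TPM in KO with vehicle, against 14.1, 17.6 and 13.8 TPM in WT with GW4064 and 6.19, 6.84 and 5.24 TPM in WT with vehicle. The WT vehicle libraries were the lowest of all, as for Dhrs3. Stra6l rose with GW4064 in WT by 1.25 ± 0.15 (limma, adjusted p = 0.00073) and was higher in KO on vehicle by 0.77 ± 0.15 (limma, adjusted p = 0.00952). Cubn (cubilin, a receptor for filtered proteins) rose with GW4064 in WT by 0.22 ± 0.04 (limma, adjusted p = 0.0148), was lower in KO under GW4064 by a log2 difference of -0.40 ± 0.04 (limma, adjusted p = 9.55e-05) and had an interaction of -0.30 ± 0.06 (limma, adjusted p = 0.0264). Its levels were 362 to 376 TPM in KO with GW4064, 383 to 399 TPM in KO with vehicle, 474 to 505 TPM in WT with GW4064 and 395 to 443 TPM in WT with vehicle. The WT call was lost without WT GW4064 replicate 1 or WT vehicle replicate 1, and the interaction call on leaving out any of 6 libraries (KO GW4064 replicate 3, KO vehicle 1 and 3, WT GW4064 1, WT vehicle 1 and 2) and with no variance trend. Of 6 proximal tubule markers 3 were also lower in KO under GW4064 (Slc34a1 -0.22, Lrp2 -0.19 and Slc7a13 -0.56), where 18.5% of all genes were called. Lrp2 is also among the 11 uptake genes, and Slc7a13 was also lower in KO on vehicle (-0.56, limma, adjusted p = 0.00709). None of the 6 markers was called in the interaction, where Slc34a1 had -0.30, and their part in the Cubn values was not tested.

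None of the 13 tested oxidoreductases and 4 other retinal dehydrogenases passed in either GW4064 comparison, where 4.80% (WT) and 0.0138% (KO) of all genes were called. In KO, 1 of the 13 (7.69%) was lower on vehicle, and 2 were higher and 1 lower under GW4064 (23.1%), against 12.9% and 18.5% of all genes. Of the retinal dehydrogenases only Aldh1a7 passed, in KO against WT under GW4064. The other Cyp26 genes, named after their values were seen, were at 0.277 to 0.819 TPM (Cyp26a1, below the filter) and 0.798 to 1.95 TPM (Cyp26c1, called in none of the 5 comparisons). Among 9 tested partner receptors and cofactors, 1 was higher and 1 lower in KO on vehicle, and 2 were higher and 1 lower under GW4064, which is 22.2% and 33.3% of the list against 12.9% and 18.5% of all genes. The corepressor Ncor1 was higher in KO by 0.17 ± 0.04 on vehicle (limma, adjusted p = 0.0225) and by 0.22 ± 0.04 under GW4064 (limma, adjusted p = 0.0034), and the coactivator Ncoa2 was lower on vehicle (-0.21 ± 0.05, limma, adjusted p = 0.0201). On vehicle the Ncor1 call was lost without KO vehicle replicate 1 or 3 or WT vehicle replicate 2 or 3, and the Ncoa2 call without KO vehicle replicate 1 or WT vehicle replicate 3, under median-of-ratios scaling and with only the compared samples.

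Among 8 tested genes known to respond to retinoic acid, 0 were called with GW4064 in either genotype (limma), against 4.80% of all genes in WT and 0.0138% in KO. At these shares 0 calls in so short a list says little. At an unadjusted p under 0.05 there were 2 in WT and 0 in KO, against 10.8% of all genes in KO. In KO 2 were lower on vehicle, and 1 was higher and 1 lower under GW4064, each 25.0% of the list, against 12.9% and 18.5% of all genes. Of the 2 lower on vehicle, Rarres1 passed the filter only through WT libraries and was under 1 TPM in every KO library. Its call was lost without KO vehicle replicate 1 or 3 or WT vehicle replicate 1 or 3, and with only the compared samples. The gene higher under GW4064, Krt7, kept its call in 3 of the 12 fits that left out 1 library. Rarres2, which encodes the chemokine-like protein chemerin, was at 24.7, 22.5 and 20.7 TPM in KO with GW4064 and 20.8, 18.6 and 21.9 TPM in KO with vehicle, against 63.7, 58.6 and 60.5 TPM in WT with GW4064 and 49.9, 35.5 and 53.2 TPM in WT with vehicle. All 6 KO libraries were below all 6 WT libraries. Its log2 difference was -1.14 ± 0.13 on vehicle (limma, adjusted p = 0.000373) and -1.41 ± 0.13 under GW4064 (limma, adjusted p = 2.14e-05). Over the 47 genes 2 (4.26%) were called with GW4064 in WT and 6 (12.8%) in KO on vehicle, which is about the share of all genes (4.80% and 12.9%). The 6 include Rarres1. With GW4064 in KO 0 were called by limma, against 0.0138% of all genes, and 6 had an unadjusted p under 0.05, against 10.8% of all genes. In KO under GW4064 12 (25.5%) were called, against 18.5% of all genes, and in the interaction 1 (2.13%), against 3.19%. The 12 include Krt7 and also Crabp2, which was at 0 in every WT GW4064 library. Crabp2 passed the filter only through KO GW4064 replicates 1 and 3 and WT vehicle replicate 1. Its call held in 4 of the 12 fits that left out 1 library. The median log2 difference of the 47 genes was -0.10 with GW4064 in WT, 0.03 with GW4064 in KO, -0.04 in KO on vehicle, 0.00 in KO under GW4064 and 0.06 for the interaction.

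**Figure D3:**
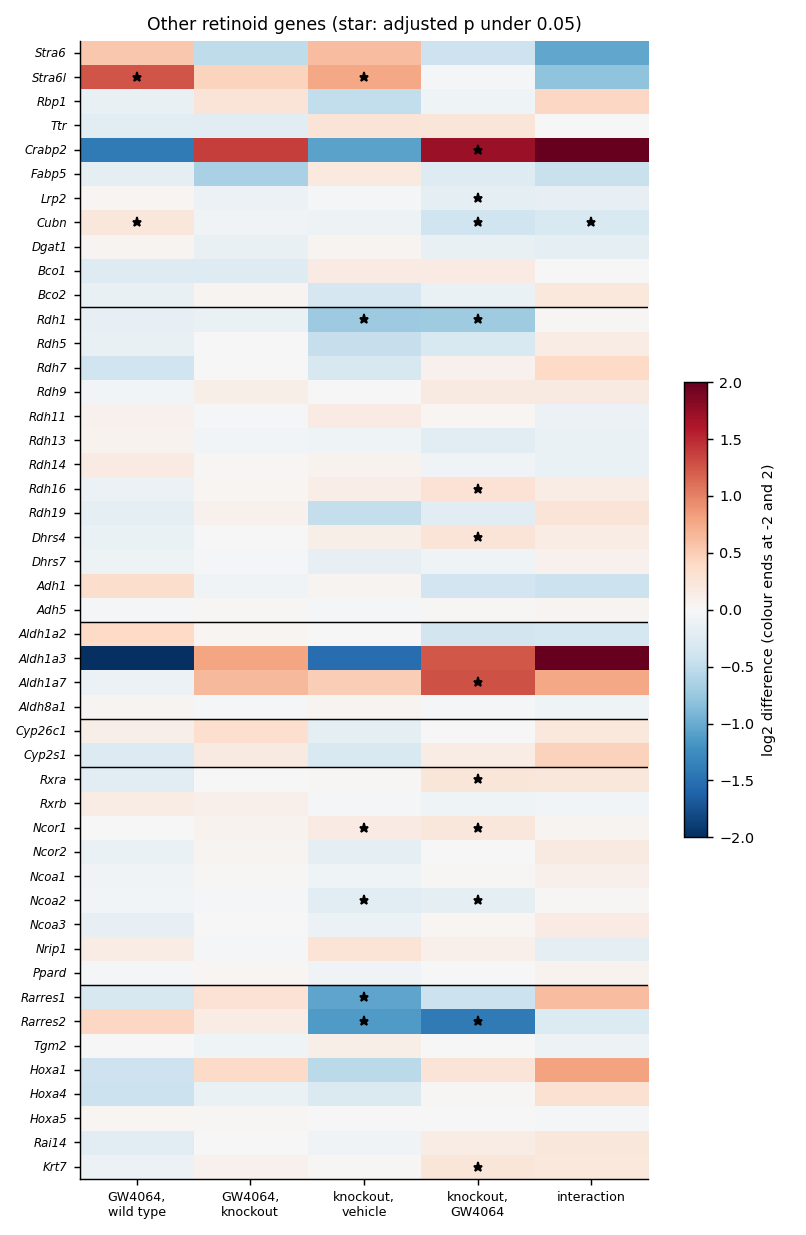
log2 differences (colour, scale ends at -2 and 2) of the 47 tested other retinoid genes in the 5 comparisons, grouped by role between black lines from transport at the top to retinoic acid response at the bottom, with a star for an adjusted p under 0.05 (limma). Stra6l (1.25) and Cubn (0.22) carry the stars with GW4064 in wild type, and the GW4064 column of the knockout has none.

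The genes with the pattern most like Cyp26b1 were sought among 10979 tested genes with a mean of at least 5 TPM. Likeness was the root mean square difference between log2(TPM + 0.5) values, each centred on the gene's own mean, over the 12 libraries. The 4 closest were Cyp4a14, a fatty acid hydroxylase (0.443), Ndrg1, a stress-responsive gene (0.546), Cyp2a4, a cytochrome P450 (0.600), and Slc38a3, a glutamine transporter (0.636). Cyp26b1 itself varied by 1.26 about its mean. Cyp4a14 averaged 1814 ± 430.1 TPM in KO with GW4064, 1368 ± 221 TPM in KO with vehicle, 277 ± 93.6 TPM in WT with GW4064 and 429 ± 21.3 TPM in WT with vehicle (SD, n = 3 each). Slc38a3 averaged 116 ± 20.0 TPM in KO with GW4064, 86.6 ± 21.8 TPM in KO with vehicle, 31.0 ± 3.35 TPM in WT with GW4064 and 57.3 ± 8.01 TPM in WT with vehicle (SD, n = 3 each). Cyp2a4 has a near-identical copy, Cyp2a5, so its value is uncertain.

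**Figure D4:**
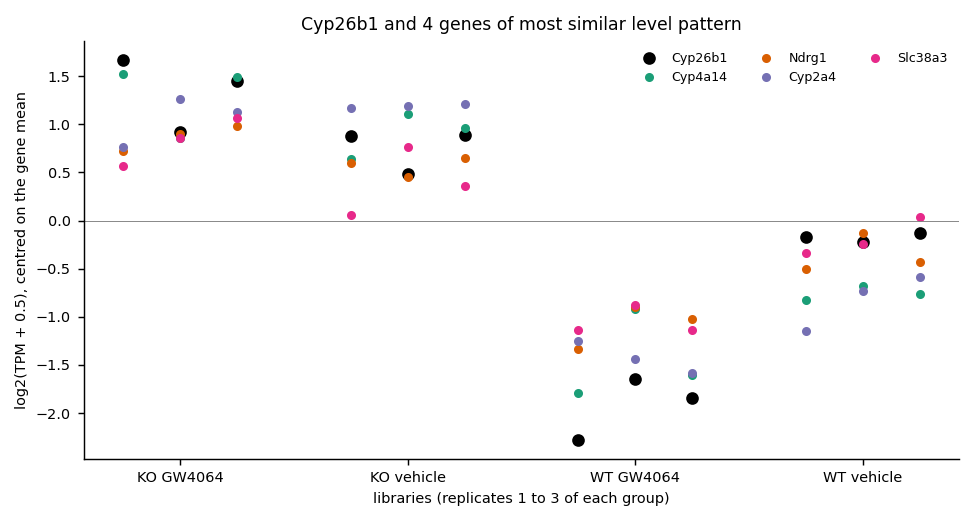
Levels of Cyp26b1 (large black points) and the 4 genes most like it in each library, as log2(TPM + 0.5) centred on each gene's mean over the 12 libraries. All 5 genes are above their mean in KO with GW4064 and KO with vehicle and below it in WT with GW4064, where Cyp26b1 reaches -2.28 in replicate 1.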

How the data were processed

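Per the labels' protocols, libraries were made from kidney total RNA with a stranded kit. The authors deposited 1 gene table per library with TPM, FPKM and coverage signal. The deposited TPM values are scaled within each library per transcript length, and the deposited FPKM values served as an alternative. The deposited coverage served for depth. HISAT2, StringTie and Cufflinks on mm10 are named, per the submitters' processing notes, and their versions and roles, the annotation and any use of strand in counting were not given in the sources used here. Replicate numbers and groups came from the labels.

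Entries of 1 gene identifier were summed (113 to 142 identifiers per library had several). Symbols came from the RefSeq gene table (24462 of 24532 identifiers). Genes reaching 1 TPM in 3 or more libraries were tested, 14488 in all. Group means of log2(TPM + 0.5) over all 12 libraries were estimated in 1 limma fit (limma 3.58.1, R 4.3.3), with a variance trend and Benjamini-Hochberg adjustment within each of 5 comparisons. Genes were called at an adjusted p under 0.05. Fold changes of low genes are understated on this scale. The fit was tested on simulated data. No counts were used, so no counting intervals or count tests apply. Promoter sequences were taken from RefSeq (GRCm38.p6). Those of Cyp26b1, Rarg and Aldh1a1 were trimmed to bases before the deposited or annotated start. For Rarb only the repeat with its flanks was printed, as its window lies within an annotated exon. Figures used Python 3.11.15 with matplotlib 3.10.9.

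The 9 genes and all lists were chosen with earlier results of these data known. Named were the 9 genes, Nr1h4 and Slc51a as checks, at most 4 called other retinoid genes per comparison by lowest p, and the 5 genes most like Cyp26b1, of which 4 are reported here. Aldh1a7, Cyp26a1, Cyp26c1, Rarres1, Crabp2, Krt7, markers and neighbours were also named where a value bears on a result. Alternatives were other pseudocounts, filters, scaling, FPKM, no variance trend, fewer samples, a replicate block and leaving out each library.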

Additional observations from a re-analysis of the deposited data

Results flagged for a closer look

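The GW4064 difference of 4 genes differed between the genotypes by a test of that difference itself (the interaction in limma, knockout minus wild type). For Cyp26b1 it was 2.35 on the log2 scale, for Rarb 0.77, for Rarg 0.53 and for Cubn -0.30. Of the 12 fits that left out 1 library, the call held in 12 for Cyp26b1, 4 for Rarb, 2 for Rarg and 6 for Cubn. The Rarg call was also lost under median-of-ratios scaling and with no filter on low values, and the Cubn call with no variance trend. Cyp26b1, Rarb and Rarg were higher with GW4064 in all 3 KO libraries than in any KO vehicle library, and lower with GW4064 in all 3 WT libraries than in any WT vehicle library. Cubn did the reverse in both genotypes. Of 7 stromal markers, Pdgfra had a called interaction of 0.92, and Col1a1 (-0.30), Col3a1 (-0.11) and Lum (-0.39) had interactions of the opposite sign that were not called. Their part in these values was not tested.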

How the results depend on the processing

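Over the log2 differences of the 9 genes and all alternatives, 831 values kept their direction and side of the threshold, 63 lost a call, 4 gained one and 23 changed sign, the last all in differences that were not called. With no filter on low values or no variance trend, 1 of the 9 genes was called with GW4064 in WT in place of 3. Calls over all genes went from 696 to 599 with no filter and 564 with no variance trend. In KO on vehicle 2 of the 9 were called in place of 4 with no filter or with only the compared samples. There the calls over all genes went from 1872 to 1608 with no filter and 1271 with only the compared samples. Of all genes, 2 were called with GW4064 in KO, and this became 1 with a pseudocount of 0.1 or median-of-ratios scaling and 0 with no variance trend or only the compared samples. Leaving out each library in turn gave 337 to 768 called genes with GW4064 in WT (lowest without WT GW4064 replicate 1), 0 to 51 in KO (highest without KO GW4064 replicate 2), 913 to 1899 in KO on vehicle (lowest without WT vehicle replicate 3), 1732 to 2759 in KO under GW4064 and 220 to 535 for the interaction (both lowest without WT GW4064 replicate 1). For the 9 genes it gave 1 to 3 with GW4064 in WT, 0 in KO, 1 to 4 in KO on vehicle, 3 to 4 in KO under GW4064 and 1 to 2 for the interaction.

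The GW4064 difference of Rdh10 in KO became -0.0174 under median-of-ratios scaling and -0.00464 with FPKM, and the difference of Rara in KO on vehicle became 0.00698 under median-of-ratios scaling. Without single libraries the sign changed for Rara (-0.12 to 0.0135) and Aldh1a1 (-0.12 to 0.12) with GW4064 in WT, Rdh10 with GW4064 in KO (-0.11 to 0.0837), Rdh10 (-0.0335 to 0.16) and Rbp4 (-0.35 to 0.12) in KO on vehicle, and Rara (-0.16 to 0.0263), Lrat (-0.44 to 0.0096) and Rbp4 (-0.31 to 0.16) for the interaction. The cause was not tested in any of these. Rbp4 and Lrat had no value under a filter of 5 TPM, nor Rbp4 under the FPKM filter.

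Libraries of the same replicate number did not deviate together: 0 of 18 same-number pairs had a correlation over 0.1 (-0.07 to 0.08), and in 11 of 36 cases a library was closest to its own number in another group. With replicate number as a block, 2 of the 9 genes were called with GW4064 in WT, 0 in KO, 3 in KO on vehicle, 3 in KO under GW4064 and 3 for the interaction. The calls lost were those of Dhrs3 with GW4064 in WT and in KO on vehicle, and no other member's call changed. Over all genes the block gave 675 calls with GW4064 in WT, 0 in KO, 1785 in KO on vehicle, 2633 in KO under GW4064 and 442 for the interaction. Low levels limit Rbp4 and Lrat most, with the SD reaching 56.2% and 36.9% of the group mean.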

Other observations

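Genes within 500 kb of each of the 9 were looked up after their values were seen. Both tested neighbours of Cyp26b1 were called in none of the 5 comparisons. Beside Lrat, the fibrinogen chain genes Fgb and Fga rose with GW4064 in WT, by 2.30 ± 0.22 (limma, adjusted p = 0.00014) and 1.17 ± 0.29 (limma, adjusted p = 0.0385), and Fgb was lower in KO under GW4064, with a log2 difference of -2.93 ± 0.22 (limma, adjusted p = 5.34e-06). Beside Rara, the circadian repressor gene Nr1d1 was lower in KO on vehicle (-2.92 ± 0.33, limma, adjusted p = 0.000395) and under GW4064 (-1.27 ± 0.33, limma, adjusted p = 0.0201). Mir3084-1, inside Rbp4, rose with GW4064 in WT by 2.08 ± 0.19 (limma, adjusted p = 8.08e-05), while Rbp4 itself had a difference of -0.80 that did not pass.

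Aldh1a3, a retinal dehydrogenase, was called in none of the 5 comparisons and varied widely between libraries of every group but WT with GW4064. It was at 15.7, 3.16 and 11.2 TPM in KO with GW4064 and 2.09, 2.35 and 17.9 TPM in KO with vehicle. In WT it was at 2.67, 3.15 and 4.01 TPM with GW4064 and 21.8, 8.53 and 15.7 TPM with vehicle. These WT groups did not overlap, as for 26.8% of all genes (-1.99 ± 0.71, limma, unadjusted p = 0.0168, adjusted p = 0.149). The summed urothelial markers were 53.1, 20.8 and 30.9 TPM in KO with GW4064 and 25.0, 17.6 and 35.1 TPM in KO with vehicle, against 18.2, 21.0 and 20.5 TPM in WT with GW4064 and 40.4, 36.6 and 39.3 TPM in WT with vehicle. Aldh1a3 was named after its values were seen.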
